A study of Mus musculus with 262 samples.

Results

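The 8 genes described here encode the WNK kinase pathway of the kidney: the kinases Wnk1, Wnk2, Wnk3 and Wnk4, the downstream kinases Stk39 (SPAK) and Oxsr1 (OSR1), and the ubiquitin ligase components Klhl3 and Cul3. They were taken by symbol and make up 8 of 47069 genes in the tables of transcript abundance (TPM, scaled by transcript length and to the same total in every sample) and 8 of 24111 genes in the table of read counts. All 8 were found in every table.

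WNK kinases lack the catalytic lysine found at the usual place in other protein kinases. They phosphorylate SPAK and OSR1, which in turn phosphorylate the cation-chloride cotransporters, among them NKCC2 of the thick ascending limb and NCC of the distal convoluted tubule. KLHL3 binds WNK kinases and brings them to a CUL3 ubiquitin ligase for degradation, and mutations of WNK1, WNK4, KLHL3 or CUL3 cause an inherited hypertension with high potassium.

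The RNA came from kidneys of male mice aged 2 months. C57BL/6 kidneys gave 235 single cells sorted with DBA, c-Kit, both of these or PNA and captured on a microfluidic chip; 2 bulk c-Kit and 2 bulk DBA samples; and tubules dissected by hand: 11 cortical collecting ducts, called CCD, and 8 thick ascending limbs of the cortex, called cTAL. The authors named the cells type A intercalated (87), type B intercalated (23), principal (74), proximal tubule (19) and non-epithelial (32). GFP-positive and GFP-negative bulk samples, 2 of each, came from a strain labelled Atp6v1b1GFP and were sorted by fluorescence. The construct and the cells it marks are not described in the labels; Atp6v1b1 encodes a proton pump subunit known from intercalated cells and the connecting tubule. No animal is named for any sample, so p-values measure only the spread between these samples, which may be technical, and each single-cell type counts as 1 sample with no test.

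Of 24 markers of the 5 single-cell types, 23 had their highest mean in the type they mark. Such markers may have served the authors to name the types, so this is not an independent check. The summed TPM of 5 thick ascending limb markers was 33613 to 53916 in cTAL and 53.5 to 701 in CCD. A TPM of at least 1 was found for a median of 2704 to 3253 genes per cell by type, for 7621 to 14004 genes per CCD and for 8094 to 12385 genes per cTAL. Reads in genes numbered 35530885 to 40815091 in the GFP samples; TPM values keep no depth. In bulk samples, fewer cells of a type and less RNA per cell cannot be told apart.

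The promoter sequences are shown for the 3 members with the widest differences between sorted fractions or tubule segments. Their upstream windows lay wholly, or for Wnk1 mostly, outside annotated exons. In the GENCODE annotation of GRCm38, Wnk1 spans chr6:119923969-120038672 on the minus strand. Wnk4 spans chr11:101260567-101277409 on the plus strand. Klhl3 spans chr13:58000228-58113592 on the minus strand. The sequences are the bases upstream of the RefSeq start on GRCm38.p6, 5′ to 3′ on the strand of the gene, with GC boxes (GGGCGG, or CCGCCC on the other strand) in capitals. They cover chr6:120038673-120038905 for Wnk1, which leaves out 17 bases nearest the start that lie in an annotated Wnk1 exon, chr11:101260317-101260566 for Wnk4 and chr13:58113648-58113897 for Klhl3.
Wnk1: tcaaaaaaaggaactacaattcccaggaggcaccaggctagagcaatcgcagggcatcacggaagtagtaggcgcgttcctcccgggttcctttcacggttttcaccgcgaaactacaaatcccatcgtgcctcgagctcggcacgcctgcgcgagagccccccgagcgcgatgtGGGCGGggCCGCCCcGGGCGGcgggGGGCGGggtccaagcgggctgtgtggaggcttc
Wnk4: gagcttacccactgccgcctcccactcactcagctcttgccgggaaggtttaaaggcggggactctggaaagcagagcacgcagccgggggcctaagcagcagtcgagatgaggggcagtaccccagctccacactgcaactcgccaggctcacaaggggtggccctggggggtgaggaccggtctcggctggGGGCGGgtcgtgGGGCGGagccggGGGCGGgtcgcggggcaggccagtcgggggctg
Klhl3: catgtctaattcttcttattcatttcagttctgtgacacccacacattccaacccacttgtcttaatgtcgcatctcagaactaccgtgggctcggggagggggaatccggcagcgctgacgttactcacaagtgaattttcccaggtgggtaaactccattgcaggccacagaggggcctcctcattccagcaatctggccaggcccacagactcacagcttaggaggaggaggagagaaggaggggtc
The Wnk1 window held 4 GC boxes, the Wnk4 window 3 and the Klhl3 window 0. A GC box on either strand was present in 32.7% of 32851 RefSeq promoter windows of 250 bases. Over the 250 bases, the G and C content was 64% for Wnk1, 70.0% for Wnk4 and 53.2% for Klhl3, against a median of 52.4% over all windows. The letters TATAAA, searched on both strands like those that follow, were in none of these 3 windows and in 12.4% of all windows. The same held for a CCAAT box, present in 33.8% of all windows. It held as well for the forkhead core TGTTTAC, present in 3.17%. No searched motif overlapped another in these windows. These matches describe the letters of the windows and were not tested as binding sites. Wnk1 is known to have an additional kidney form that starts from an internal promoter, and the gene-level tables cannot tell the forms apart.

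Wnk1 was the most abundant WNK transcript in single cells of the collecting duct and in non-epithelial cells. Its mean TPM was 562 (SD 638 over cells) in non-epithelial cells, 435 (SD 529) in type A cells and 282 (SD 554) in type B cells. The mean was 188 (SD 549) in principal cells and 28.5 (SD 47.2) in proximal tubule cells. Medians were further apart: 414 for non-epithelial, 228 for type A and 55.7 for type B cells, against 3.40 for principal and 2.29 for proximal tubule cells. Principal cells therefore combined many low values with a few very high ones, up to 3605 TPM. A TPM of at least 1 was seen in 85 of 87 type A cells (97.7%, exact Clopper-Pearson 95% interval 91.9 to 99.7) whereas principal cells showed it in 56 of 74 (75.7%, interval 64.3 to 84.9). The higher mark of 100 TPM was reached by 50 type A cells and 17 principal cells. These intervals cover counting error only.

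Wnk4, the kinase known chiefly from the distal nephron, was found in fewer cells of each type than Wnk1, and its mean was below that of Wnk1 in every type but proximal tubule cells. The mean was 105 (SD 227) TPM in type A cells, 85.1 (SD 170) in type B cells and 58.1 (SD 158) in proximal tubule cells. Principal cells had 47.0 (SD 129) and non-epithelial cells 30.7 (SD 158). At least 1 TPM was present in 40 of 87 type A, 9 of 23 type B, 28 of 74 principal, 7 of 19 proximal tubule and 6 of 32 non-epithelial cells. Medians were under 1 TPM in all 5 types, from 0.11 in non-epithelial to 0.79 in proximal tubule cells. The order by mean thus rested on a minority of cells: 20 type A and 9 principal cells reached 100 TPM.

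Wnk2 and Wnk3 were close to 0 throughout the single cells. Wnk2 reached 1 TPM in 1 principal cell, at 2.23 TPM. Wnk3 reached it in 1 type A cell, at 1.26 TPM, and in 1 principal cell, at 39.2 TPM.

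**Figure D1:**
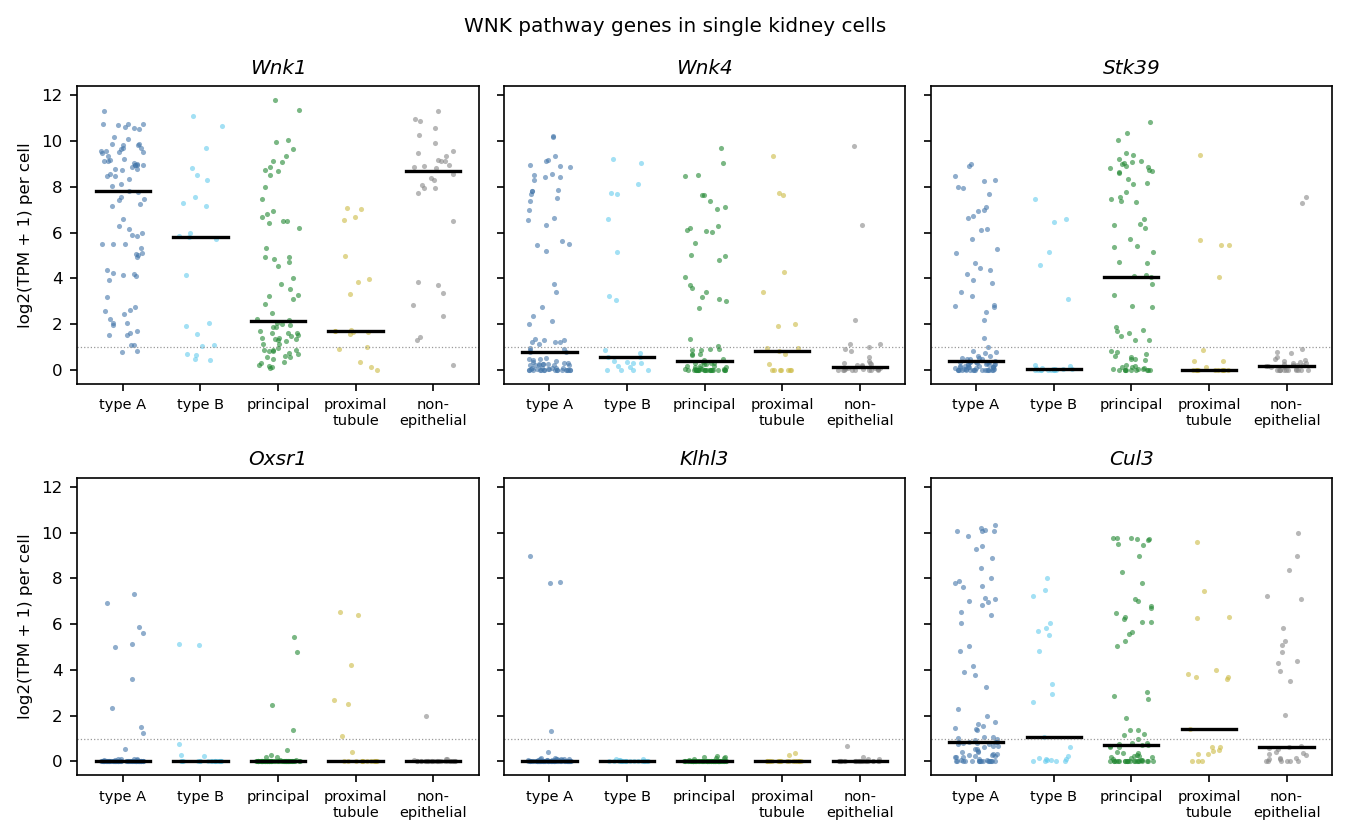
Each point is 1 cell, plotted as log2(TPM + 1) by the authors' cell type for 6 genes; black bars are medians and the dotted line marks 1 TPM. Wnk1 is high in most type A and non-epithelial cells, Stk39 has its highest median in principal cells, and Klhl3 exceeds 1 TPM in 4 type A cells only.

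Stk39, which encodes SPAK, had its highest mean in principal cells. The mean there was 186 (SD 327) TPM with a median of 15.9, and 49 of 74 cells reached 1 TPM (66.2%, exact interval 54.3 to 76.8). Proximal tubule cells had a mean of 43.8 (SD 154), where 1 cell at 678 TPM held most of the sum, and type A cells 42.5 (SD 103). Type B cells had 18.6 (SD 44.0) and non-epithelial cells 10.8 (SD 42.0). Medians outside principal cells were at most 0.30 TPM. Non-epithelial cells showed 1 TPM or more in 2 of 32 cells (6.25%, interval 0.766 to 20.8), the lowest share of the 5 types, at a median of 2862 genes per cell against 2924 in principal cells. The mean in principal cells was higher than the next by 2.06 on the log2(TPM + 1) scale.

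Oxsr1, the paralog OSR1, was sparse in every type. At least 1 TPM was found in 6 of 19 proximal tubule cells (31.6%, exact interval 12.6 to 56.6) and 10 of 87 type A cells (11.5%, interval 5.65 to 20.1). Principal cells reached it in 4 of 74 (5.41%, interval 1.49 to 13.3). Type B cells had 2 of 23 and non-epithelial cells 1 of 32. The mean was 10.8 (SD 27.4) TPM in proximal tubule cells and 5.41 (SD 23.0) in type A cells. It was 2.98, 1.03 and 0.101 in type B, principal and non-epithelial cells.

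Klhl3, the substrate adaptor that binds WNK kinases, reached 1 TPM in 4 of 87 type A cells (4.60%, exact interval 1.27 to 11.4), and 3 of these exceeded 100 TPM. It reached 1 TPM in 0 of 74 principal cells, which allows a share of up to 4.05%, and in 0 of 23 type B cells, which allows up to 13.0%. Proximal tubule cells (0 of 19) allow up to 15.8% and non-epithelial cells (0 of 32) up to 9.38%. These limits, 3 cells of the total, are approximate and tighter than the exact interval given for type A cells. An exact interval reaches 14.8% for 0 of 23 and 10.9% for 0 of 32. The mean of 11.0 TPM in type A cells therefore rested on 3 cells.

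Cul3, the ligase scaffold used with many adaptors, was found in all 5 types at shares between 43.2% of principal cells and 52.6% of proximal tubule cells. Its mean was 138 (SD 315) TPM in type A, 117 (SD 258) in principal, 73.8 (SD 203) in non-epithelial, 61.0 (SD 176) in proximal tubule and 37.1 (SD 67.8) in type B cells. Medians ran from 0.54 to 1.69 TPM. For each of the 8 genes, neighbours in the order of type means differed by less than the larger of their SDs over cells.

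The share of cells with kinases of both tiers was highest in principal cells, with an interval that overlapped that of type A cells. A WNK with Stk39 or Oxsr1, each at 1 TPM or more, was seen in 42 of 74 principal cells (56.8%, exact interval 44.7 to 68.2) and 37 of 87 type A cells (42.5%, interval 32.0 to 53.6). The count was 3 of 32 in non-epithelial cells, although 31 of them had Wnk1. Wnk1 and Wnk4 were found together in 39 of 87 type A cells, and Wnk4 without Wnk1 in 1. In principal cells they were together in 20 of 74, with Wnk4 alone in 8 and neither in 10. Stk39 and Oxsr1 met in 4 type A and 3 principal cells. Spearman's rho between a gene's TPM and the number of genes detected in the same cell, a description over cells of 1 sample, was 0.14 for Wnk1 in 87 type A cells and 0.18 for Stk39 in 74 principal cells.

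Among microdissected tubules, Wnk4 was lower in CCD than in cTAL. The 11 CCD had 47.2, 70.3 and 108 TPM (lowest, median, highest) and the 8 cTAL 237, 344 and 448, so the groups did not overlap. The mean was 69.5 ± 19.7 TPM (SD, n = 11) in CCD and 334 ± 69.5 (SD, n = 8) in cTAL. The difference was -2.27 on the log2(TPM + 1) scale (SE 0.19, limma adjusted p = 1.89e-09, adjusted by the Benjamini-Hochberg method over 13520 genes). Wnk4 was the only member called of the 6 tested, where 18.7% of all genes tested were called and 13.2% were called higher and 5.5% lower in CCD. Column headers carry a prefix, m1 to m7, that the labels do not explain. Within each of the 6 prefixes present in both groups, Wnk4 was lower in CCD, by -2.84 to -2.02. Should a prefix mark an animal, tubules sharing it are not independent, and p-values over tubules may be too small or too large. Genes called numbered 2526 in the main fit, 2588 with a block by prefix and 1796 with means per prefix. Wnk4 shares 306 exon bases with Gm11615, an antisense gene on the opposite strand, and no source used here says whether reads were counted by strand.

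Wnk1 had a similar direction in the tubules but did not pass the test. CCD had 4.27, 22.5 and 79.3 TPM and cTAL 0.54, 101 and 243 (lowest, median, highest). The difference of -1.68 (SE 0.72) had a limma adjusted p of 0.116, and an exact two-sided permutation test over the 19 tubules gave p = 0.0494 before adjustment. The cTAL headed m3_cTAL1 had 0.54 TPM while the other 7 had 53.8 or more. That tubule had 4091 TPM of Slc12a1 and 346 TPM of Wnk4, and the fewest genes detected of the cTAL, 8094. Without it the difference was -2.45 with a limma adjusted p of 4.25e-04. The highest CCD value came from m2_CCD2, the CCD with the fewest genes detected, 7621. Leaving out both tubules gave -2.65 with a limma adjusted p of 4.00e-05. That exclusion was chosen after seeing the data. It removed the lowest cTAL and the highest CCD value of Wnk1, so its p-value carries little weight. Within prefixes, Wnk1 was lower in CCD in 5 of 6, with -2.82 to -1.60, and the exception was m3, at 2.58.

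Stk39 values overlapped between the segments. CCD had 70.6, 106 and 152 TPM and cTAL 36.0, 84.4 and 102 (lowest, median, highest). The difference was 0.44 (SE 0.20, limma adjusted p = 0.142; exact two-sided permutation p = 0.0139 before adjustment), and 77 of 88 pairs of a CCD and a cTAL had the higher value in the CCD. With weights for each sample, the limma adjusted p was 0.0126. Over all genes tested, the median of the differences was 0.31, and -0.03 after quantile normalization.

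Oxsr1, Klhl3 and Cul3 gave no call between the tubules. Oxsr1 ran from 0.93 to 12.3 TPM in CCD and from 0.05 to 16.4 in cTAL (difference 0.54, limma adjusted p = 0.559). Klhl3 ran from 0 to 4.24 TPM in CCD and from 0.18 to 3.48 in cTAL (difference 0.01, limma adjusted p = 0.987). Cul3 ran from 38.0 to 110 TPM in CCD and from 29.4 to 190 in cTAL (difference 0.15, limma adjusted p = 0.791). The ranges of all 3 genes overlapped. For Oxsr1 and Cul3 the sign turned after quantile normalization, at -0.13 and -0.05, and for Klhl3 it turned under several alternatives. Wnk2 stayed at or below 0.11 TPM and Wnk3 at or below 2.26 TPM in every tubule, and both were under the filter of a mean of 1 TPM. The median difference of the 6 members tested was 0.08.

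Set in order by TPM, which is scaled by length, the members ranked differently in the 2 segments. In cTAL, Wnk4 led at 334 ± 69.5, followed by Wnk1 at 107 ± 72.7, Stk39 at 79.9 ± 21.4 and Cul3 at 76.7 ± 50.3 (SD, n = 8). In CCD, Stk39 led at 106 ± 21.6, followed by Cul3 at 77.9 ± 27.0, Wnk4 at 69.5 ± 19.7 and Wnk1 at 25.5 ± 20.8 (SD, n = 11). Oxsr1 and Klhl3 came last of these 6 in both segments. The differences between Stk39 and Cul3 in cTAL and between Cul3 and Wnk4 in CCD were smaller than both SDs; that between Wnk1 and Stk39 in cTAL was smaller than the SD of Wnk1 but not that of Stk39.

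**Figure D2:**
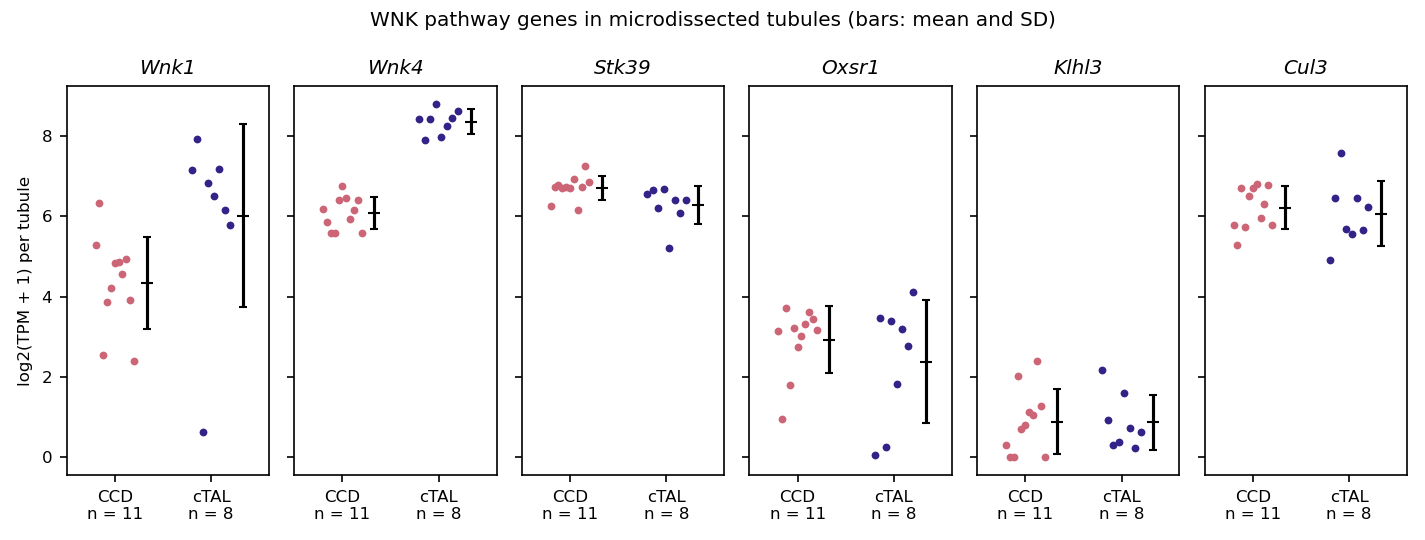
Each point is 1 tubule, plotted as log2(TPM + 1), with the mean and SD beside the points. The 8 cTAL values of Wnk4 all lie above the 11 CCD values, whereas 1 cTAL tubule has the lowest Wnk1 value of all.

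Between the bulk sorts, Wnk1 was higher and Stk39 lower in the c-Kit samples than in the DBA samples. c-Kit is a surface receptor found on type A intercalated cells, and DBA is a lectin that binds collecting duct cells. Wnk1 was 113 and 92.9 TPM in the c-Kit and 31.1 and 27.3 in the DBA samples, a difference of 1.78 on the log2(TPM + 1) scale (SE 0.11, limma adjusted p = 6.18e-05). Stk39 was 60.3 and 66.5 TPM in the c-Kit and 135 and 125 in the DBA samples, a difference of -1.03 (SE 0.08, limma adjusted p = 1.29e-04). Neither gene overlapped between the groups of 2 samples each, which carries little weight at this size. Wnk4 was 110 and 104 TPM against 92.1 and 90.6, a difference of 0.22 (SE 0.07, limma adjusted p = 0.0336), and this call was lost with no filter on low values, with no variance trend and without c-Kit replicate 1 or either DBA sample (adjusted p 0.0534 to 0.151). Of the 6 members tested, 2 were called higher and 1 lower, where 44.3% of 14341 genes were called, 16.1% higher and 28.1% lower. The split of all calls moved from 36.5% higher to 49.9% after quantile normalization, while the calls of Wnk1 and Stk39 held.

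The other members gave no call between these sorts. Klhl3 had 1.68 and 1.86 TPM in the c-Kit and 1.11 and 1.03 in the DBA samples (difference 0.42, limma adjusted p = 0.172; 0.0256 with no variance trend, where it was called). Oxsr1 had 10.7 and 11.0 against 12.0 and 12.2 TPM (difference -0.14, limma adjusted p = 0.375). After quantile normalization its difference turned sign, to 0.08. Cul3 had 124 and 122 against 118 and 119 TPM (difference 0.05, limma adjusted p = 0.509). These 3 genes did not overlap between groups, which carries little weight with 2 samples a side. The share of all genes without overlap was not counted. Wnk2, at 0.27 to 0.38 TPM, and Wnk3, at 0 to 0.08 TPM, were under the filter. The median difference of the 6 members tested was 0.14, beside -0.11 over all genes tested.

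Markers of other cells differed between the sorts as well. The summed TPM of 3 type A markers was 2749 to 2793 in the c-Kit and 52.7 to 63.1 in the DBA samples. The 4 type B markers were also higher in the c-Kit samples, at 1616 to 1633 against 159 to 178. The 6 principal cell markers summed to 2519 to 3392 against 22287 to 24841. Proximal tubule markers summed to 1097 to 1219 against 2297 to 2398, and macrophage markers to 398 to 460 against 2554 to 2716. The 4 non-epithelial markers summed to 3360 to 3638 TPM in the c-Kit and 10070 to 10438 in the DBA samples, with none of them at 0. Cd74 made up most of these sums, with means of 3441 and 10152 TPM. Cd74 and Ptprc were called lower in c-Kit by limma, while Pecam1 (-0.43) and Col1a2 (0.26) were not called. The part of these markers in the differences of Wnk1 and Stk39 was not tested.

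In the GFP sorts, 5 of the 8 members were higher in GFP-positive cells and none was called lower, where 32.6% of 15671 genes were called, 15.2% higher and 17.3% lower. Wnk1 had 625 and 579 CPM (read counts scaled by library size with TMM factors) in GFP-negative and 2566 and 2068 in GFP-positive samples, a log2 difference of 1.94 (SE 0.21, edgeR adjusted p = 2.48e-04). Wnk4 had 87.9 and 132 against 297 and 252, a log2 difference of 1.32 (SE 0.22, edgeR adjusted p = 0.00256). These groups of 2 samples each did not overlap, which carries little weight at this size. The share of all genes without overlap between the GFP sorts was not counted.

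Stk39 had 67.0 and 60.9 CPM in GFP-negative and 169 and 195 in GFP-positive samples, a log2 difference of 1.50 (SE 0.17, edgeR adjusted p = 3.21e-04). Klhl3 had 2.90 and 5.30 against 35.6 and 15.7, a log2 difference of 2.65 (SE 0.45, edgeR adjusted p = 0.00264), the widest of the members. The GFP-positive samples held 1325 and 594 reads of Klhl3, whereas the deposited RPKM values were 34.4 and 30.7. Without GFP-positive replicate 1 the log2 difference of Klhl3 was 1.91 (edgeR adjusted p = 0.0192). Oxsr1 had 73.7 and 68.6 against 105 and 103, a log2 difference of 0.55 (SE 0.16, edgeR adjusted p = 0.0323); this call was lost on leaving out any 1 of the 4 samples (adjusted p 0.0703 to 0.170).

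Cul3 had 345 and 363 CPM in GFP-negative and 444 and 419 in GFP-positive samples, a log2 difference of 0.28 (edgeR adjusted p = 0.233). Wnk2 (log2 difference -0.72, adjusted p = 0.239) and Wnk3 (0.04, adjusted p = 0.955), both from edgeR, stayed at 2.71 to 5.12 CPM. Neither these nor Cul3 passed the test. The median log2 difference of the 8 members was 0.93, beside 0.02 over all genes tested.

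Per gene length, Wnk1 led the members in the GFP-positive cells. In the deposited RPKM values its mean was 215 ± 48.5 (SD, n = 2), followed by Wnk4 at 127 ± 14.5, Stk39 at 107 ± 14.2 and Cul3 at 78.4 ± 3.07. Klhl3 had 32.5 ± 2.63 and Oxsr1 26.9 ± 1.89 (SD, n = 2 each). The RPKM values of Klhl3 did not follow its 1325 and 594 reads, so its place in this order is uncertain. In GFP-negative cells the highest was Cul3 at 65.5 ± 17.6, followed by Wnk1 at 51.7 ± 1.15 and Wnk4 at 40.3 ± 8.15, while Klhl3 had 5.03 ± 1.64. There Cul3 and Wnk1 differed by less than the SD of Cul3.

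The GFP-positive samples also had higher markers of distal segments. The 3 distal convoluted tubule markers summed to 747 to 1333 CPM against 110 to 133 in GFP-negative samples, and the 3 connecting tubule markers to 1893 to 2382 against 47.1 to 75.3. Markers of type A cells summed to 3385 to 7692 against 47.7 to 84.9. Those of type B cells summed to 1667 to 2367 against 14.0 to 20.6. Principal cell markers summed to 772 to 1356 against 190 to 215. The 5 thick ascending limb markers summed to 9893 to 14791 against 8304 to 8650, with 1 called higher and 1 lower by edgeR. None of these markers was at 0 in either group. The 4 proximal tubule markers ran the other way, at 1723 to 2759 against 14753 to 15366. The part of each cell type in the differences of the WNK pathway genes was not tested.

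**Figure D3:**
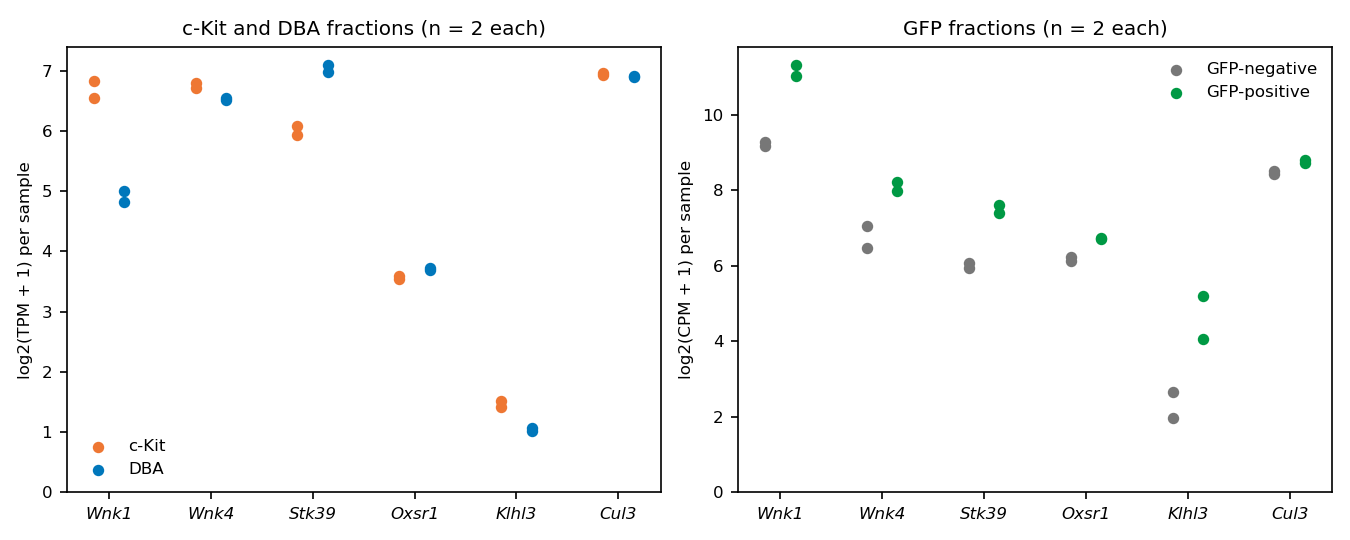
Each point is 1 bulk sample: log2(TPM + 1) in c-Kit and DBA samples on the left, log2(CPM + 1) in GFP-negative and GFP-positive samples on the right (CPM, counts scaled by TMM-normalized library size). Wnk1 and Stk39 separate the c-Kit and DBA samples in opposite directions, and Klhl3 and Wnk1 have the widest gaps between the GFP samples.

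The balance of Wnk1 and Wnk4 within a sample differed between single cells and tissue. Wnk1 made up 80.5% of the summed mean TPM of the 4 WNK genes in type A cells, 76.8% in type B, 79.8% in principal, 94.8% in non-epithelial and 33.0% in proximal tubule cells. In dissected tubules it made up 26.8% in CCD and 24.3% in cTAL. The c-Kit samples had 48.9% and the DBA samples 24.2%. Wnk4 held nearly all of the rest in each group. Wnk1 exceeded Wnk4 in 1 of 11 CCD, 1 of 8 cTAL, 1 of 2 c-Kit and 0 of 2 DBA samples. In single cells Wnk1 exceeded Wnk4 in 70 of 87 type A and 56 of 74 principal cells. Single cells, tubules and bulk samples were normalized in separate tables and prepared by different routes, so these shares are set side by side without a test.

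Stk39 exceeded Oxsr1 in every tubule and in all 4 c-Kit and DBA samples. The median log2 ratio of TPM + 1 was 3.69 (range 2.85 to 5.79) in CCD and 3.31 (range 2.30 to 6.48) in cTAL. The c-Kit samples had 2.39 and 2.49 and the DBA samples 3.39 and 3.26. The ranges of CCD and cTAL overlapped. Those of c-Kit and DBA did not, which carries little weight with 2 samples a side. Among single-cell types, the log2 ratio of the mean TPM + 1 was 6.53 in principal cells and 1.93 to 3.42 in the others.

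**Figure D4:**
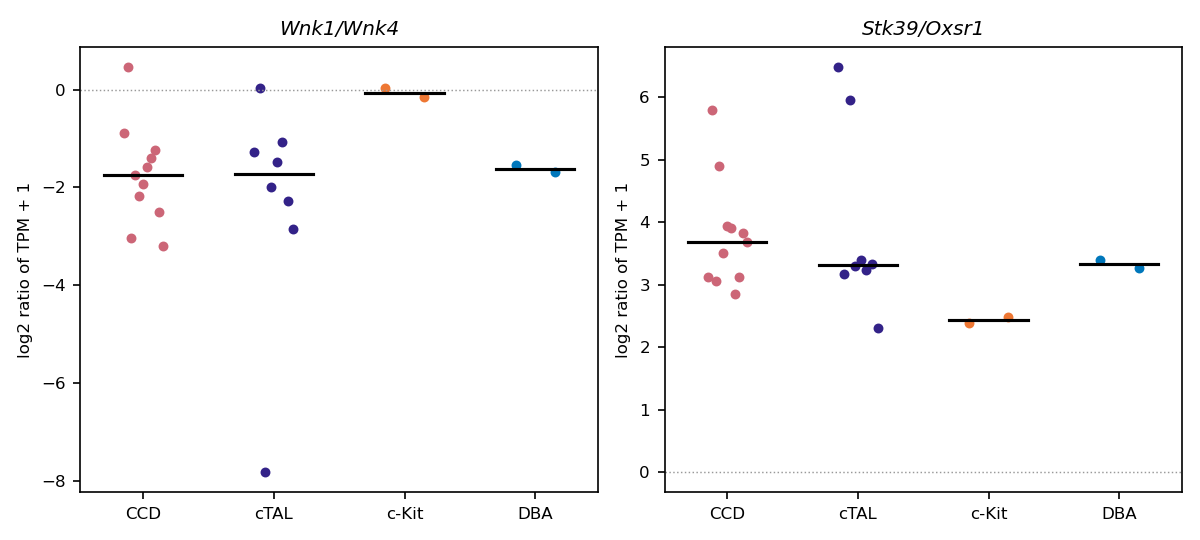
Each point is 1 sample, plotted as the log2 ratio of TPM + 1 of Wnk1 to Wnk4 (left) and of Stk39 to Oxsr1 (right); bars are medians and the dotted line marks equal levels. Most tubules and both DBA samples have less Wnk1 than Wnk4, and every sample has more Stk39 than Oxsr1.

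The targets of the pathway were read from the same fits, in a list of 15 transporters and channels. Between CCD and cTAL, 5 were called higher and 3 lower in CCD, where 13.2% of all genes tested were called higher and 5.5% lower. Slc12a1, which encodes NKCC2, was lower: CCD had 2.02, 5.78 and 25.5 TPM and cTAL 1878, 3974 and 4430 (lowest, median, highest), a difference of -8.70 (limma adjusted p = 3.70e-14). The epithelial sodium channel subunits Scnn1b (9.41), Scnn1g (8.94) and Scnn1a (1.50) and the type B anion exchanger Slc26a4 (9.28) were higher in CCD by limma. Kcnj1, the potassium channel ROMK, had medians of 942 TPM in CCD and 950 in cTAL (difference 0.04, limma adjusted p = 0.928). Slc12a3, the distal convoluted tubule cotransporter NCC, had at most 8.65 TPM in CCD and 2.05 in cTAL. Calls of Slc12a4, a potassium-chloride cotransporter (-1.77, limma adjusted p = 0.0363), and Trpv5, a calcium channel (1.70, limma adjusted p = 0.0289), were lost under several alternatives. Kcnj16 was the other gene called lower in CCD, by -0.87. The median difference of the 15 targets was 0.39, beside 0.31 over all genes tested.

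Between c-Kit and DBA samples, 9 targets were called lower and 2 higher in c-Kit. Of all genes tested, 28.1% were called lower and 16.1% higher. Kcnj1 had 156 and 193 TPM in the c-Kit and 783 and 902 in the DBA samples (lowest and highest of 2 each; difference -2.27, limma adjusted p = 2.40e-05). Scnn1g (-2.26), Kcnj16 (-1.73), Kcnj10 (-1.47), Scnn1b (-1.44) and Scnn1a (-0.56) were lower, and Slc26a4 was higher, by 2.67. Slc12a1 and Slc12a3 gave no call, with 0.13 and 0.17. The calls of Slc12a4 (-0.34), Slc4a8 (-0.63) and Trpv5 (0.88) were lost with 1 sample left out and under other alternatives; for Trpv5 the limma adjusted p was 0.0686 with no filter and 0.114 and 0.136 without a DBA sample. The median difference of the targets was -0.56, beside -0.11 over all genes tested.

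Between GFP sorts, 10 targets were called higher in GFP-positive cells, where 15.2% of all genes tested were called higher. Slc12a3 had 123 and 104 CPM in GFP-negative and 1273 and 713 in GFP-positive samples, a log2 difference of 3.12 (edgeR adjusted p = 1.21e-04). Slc26a4 (7.12), Trpv5 (5.47), Scnn1b (4.07), Scnn1g (3.41), Scnn1a (3.16), Kcnj10 (1.80), Slc4a8 (1.73) and Kcnj1 (1.43) were higher as well. The call of Slc12a2 (0.79) was lost without GFP-negative or GFP-positive replicate 2, and those of Slc12a2 and Slc4a8 with limma on RPKM. The median log2 difference of the targets was 1.73, beside 0.02 over all genes tested.

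Partners and regulators were a list of 19 genes. In CCD, 7 were called higher than in cTAL and 0 lower, where 13.2% of all genes tested were called higher and 5.5% lower. Hsd11b2, the enzyme that keeps glucocorticoids from the mineralocorticoid receptor, differed by 9.86, the aldosterone-induced kinase Sgk1 by 5.23, the ubiquitin ligase Nedd4l by 2.47 and the mineralocorticoid receptor Nr3c2 by 2.24. Nr3c2 had 34.7, 46.4 and 113 TPM in CCD and 0.81, 13.8 and 22.0 in cTAL (lowest, median, highest). The SPAK and OSR1 scaffold Cab39l differed by 0.93 (limma adjusted p = 0.00899; 0.0510 with means per header prefix). Its paralog Cab39 gave no call (0.33), but was called with sample weights (0.73, limma adjusted p = 0.00439). Rbx1 (0.37) and Ppp3ca (-0.74) gave no call in the main fit but were called under several alternatives. With sample weights, Rbx1 was higher in CCD (limma adjusted p = 0.0201) and Ppp3ca lower (0.00752). Nedd8, the modifier that activates cullin ligases, differed by 0.80, and the phosphatase subunit Ppp1ca by 0.40. The Ppp1ca call was lost after quantile normalization (limma adjusted p = 0.186) and without a variance trend. The median of the list was 0.39.

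The Klhl3 paralog Klhl2, which also binds WNK kinases, was more abundant than Klhl3 in all 11 CCD, in all but 1 of 8 cTAL and in every c-Kit and DBA sample by TPM. CCD had 2.19, 25.0 and 45.6 TPM of Klhl2 and cTAL 0.02, 9.37 and 25.7 (lowest, median, highest). Klhl2 gave no call (difference 1.31, limma adjusted p = 0.110), but was called with sample weights (limma adjusted p = 0.00526) and without m3_CCD1 (0.0289). In the sorts it was higher in c-Kit, at 36.3 and 38.4 TPM against 19.2 and 21.2 (difference 0.85, limma adjusted p = 6.09e-04). In type A cells 17 of 87 reached 1 TPM of Klhl2, against 4 for Klhl3, but the mean was higher for Klhl3, at 11.0 against 4.45 TPM. In the deposited RPKM values Klhl3 was also the more abundant in GFP-positive samples, at 34.4 and 30.7 against 10.3 and 15.2 for Klhl2. GFP-negative samples had 6.19 and 3.87 against 21.5 and 9.19. In CPM, which is not scaled by length, GFP-positive samples had less Klhl3 than Klhl2, at 35.6 and 15.7 against 45.3 and 49.1. The RPKM values of Klhl3 did not follow its reads, 1325 and 594, and its merged exons cover 7322 bases. A fixed length would scale both samples alike, so the order of Klhl3 and Klhl2 by RPKM is uncertain. Between GFP sorts Klhl2 gave no call (log2 difference 0.38, edgeR adjusted p = 0.200), where Klhl3 was higher by 2.65.

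Between c-Kit and DBA samples 5 regulators were called higher and 7 lower in c-Kit. Of all genes tested, 16.1% were called higher and 28.1% lower. Cab39 (0.59), Nedd4l (0.61) and Nedd8 (0.57) were higher with Klhl2, and Hsd11b2 (-2.78), Sgk1 (-1.61), Tsc22d3 (-1.09) and Tsc22d4 (-0.93) were lower. Cab39l (-0.35) was lower. The calls of Cab39l, Rbx1 (0.26), Tsc22d1 (-0.28) and Ppp3r1 (-0.40) were lost without 1 sample or more, among them Cab39l without c-Kit replicate 2 (limma adjusted p = 0.0526) or DBA replicate 1 (0.0817). Between GFP sorts 6 were called higher and 2 lower in GFP-positive cells, where 15.2% of all genes tested were called higher and 17.3% lower. Hsd11b2 (3.04), Nr3c2 (2.01) and Nedd4l (1.83) were higher by edgeR, and Tsc22d3 (-1.53) and Sgk1 (-0.75) were lower. With the replicate number as a block, Ppp3cb, a calcineurin catalytic subunit, passed as well (log2 difference 0.53, edgeR adjusted p = 0.0290, against 0.0562 without it). The calls of Cab39 (0.58), Cab39l (0.56), Tsc22d2 (0.79) and Sgk1 in the GFP sorts were lost on leaving out 1 sample or more, and that of Tsc22d3 with limma on RPKM. The medians of the list were -0.12 in the c-Kit and DBA comparison and 0.23 in the GFP comparison.

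**Figure D5:**
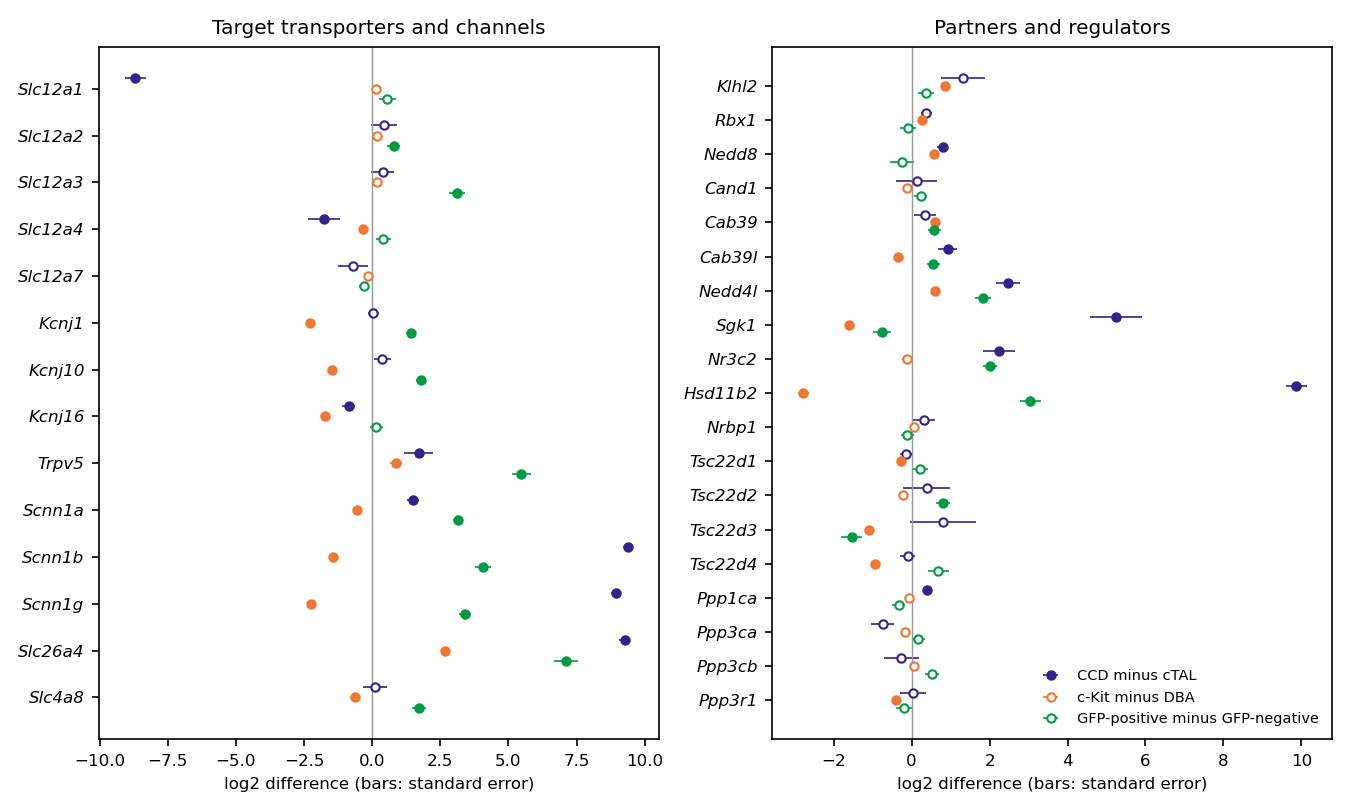
Each point is the log2 difference of 1 gene in 1 comparison with its standard error, filled where the gene passed an adjusted p of 0.05 and open where it did not, for the targets (left) and the 19 partners and regulators (right). The differences on the tubule and c-Kit axes are of log2(TPM + 1), those of the GFP sorts are fitted by edgeR; Hsd11b2, Scnn1b and Slc26a4 lie farthest to the right and Slc12a1 farthest to the left, all in the tubule comparison.

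Genes whose group means were most like each member were ranked by Pearson's r of mean log2(TPM + 1) over 9 groups (5 single-cell types, c-Kit, DBA, CCD and cTAL), among 12162 genes with a mean of 10 TPM or more in at least 1 group. The 5 single-cell groups share 1 table and route of preparation, as do the others within theirs, so r is a description. Wnk1 had no close match, with Gm26899 at r = 0.783 and Kctd12 at 0.766. Wnk4 was nearest to Cox11 and Acadsb (both 0.993), and Stk39 to Cog7 (0.995) and Efemp1 (0.992). Oxsr1 was nearest to Zfp704 and Creb1 (both 0.998), and Cul3 to Vwa8 and Rhbdd3 (both 0.999). Klhl3 was nearest to Cttnbp2 (0.996) and Esrrg (0.992). Wnk2 and Wnk3, which had no group mean above 0.53 TPM, were nearest to Gm22990 and Mir3101 (both 0.997) and to Gm18776 (0.958) and Slc34a2 (0.954).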

How the data were processed

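The values analysed were tables deposited by the authors. The authors deposited TPM values, which share a fixed total per sample, for single cells, tubules and the c-Kit and DBA sorts; the tubule file names no unit, and TPM was inferred from its column sums. For the GFP samples the authors deposited raw read counts and RPKM values (scaled by gene length and library size), which their names tie to RefSeq genes of mm10. The submitters' processing notes name STAR 2.5.1b, RSEM 1.2.31, Seurat and GRCm38.p5, with no role given. Rows naming no gene held 66.7% to 72.8% of the GFP counts and entered neither library sizes nor tests. Depth is unknown for TPM values, and no source used here gives the strand mode.

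Counts were compared with edgeR 4.0.16 (TMM, filterByExpr, quasi-likelihood test) and log2(TPM + 1) with limma 3.58.1 with a variance trend, for genes averaging 1 TPM or more, in R 4.3.3. Benjamini-Hochberg adjustment ran over all genes tested, with calls under 0.05. Single cells were summarised in Python 3.11.15; scipy 1.17.1 gave exact Clopper-Pearson 95% intervals, and the limit for a count of 0 is 3 cells of the total. Cell types are the authors' own, no doublet caller was run on these values, and the labels describe capture of 1 cell in each chamber. The scripts were tested on simulated data.

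The genes named are the 8 members, 34 targets, partners and regulators, and the 2 genes most like each member; 1 of the targets is counted in the lists but is not reported here. The members and lists were chosen with earlier results of these data known. Sample groups come from the titles. RPKM headers name a first and a second experiment, and the replicate numbers of the GFP counts may mark the same pairs, which the labels do not state. The main edgeR test left this pairing out. Same-numbered samples had a correlation of deviations of 0.143, and a block by replicate number changed no call of a member. Alternatives covered normalization, filters, pseudocounts of 0.1 and 5, weights, DESeq2 1.42.0 for counts and leaving out each sample. Alternatives using header prefixes, and leaving out the tubules with the fewest genes, were chosen after seeing the data.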

Additional observations from a re-analysis of the deposited data

Results flagged for a closer look

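Among 40 genes examined in the 8 cTAL tubules, 6 had a lowest or highest tubule set apart from the rest by Dixon's test, which measures the gap to the nearest other value as a share of the whole range on the log2(TPM + 1) scale. Chance gives about 1 in 20 such groups. For Wnk1 the gap of m3_cTAL1, at 0.54 TPM, was 0.705 of the range. For Stk39 the gap of m6_cTAL1, at 36.0 TPM, was 0.598. The same tubule stood apart for Slc12a1, at 1878 TPM with a gap of 0.679, and for Rbx1, the RING subunit of cullin ligases, at 76.1 TPM with a gap of 0.677. The tubule m1_cTAL1 stood apart for Nr3c2, at 0.81 TPM with a gap of 0.633, and for Nrbp1, a pseudokinase related to the WNK family, at 15.3 TPM with a gap of 0.528.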

How the results depend on the processing

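The 5 calls among members between GFP sorts were made in all settings that kept all samples and used counts. The number of genes called fell from 5101 to 1639 with limma on log2(RPKM + 1), where Oxsr1 was not called (limma adjusted p = 0.173). It was 5897 with the block by replicate number. Wnk3 ran from -0.26 to 0.42 on leaving out 1 replicate. Between c-Kit and DBA samples, where the replicate numbers share no stated source (correlation of deviations 0.0264), the replicate block gave 6271 genes and 3 members called, against 6348 and 3; leaving out 1 sample gave 3458 (without DBA replicate 2) to 5701 genes, with 3600 without DBA replicate 1. Oxsr1 turned sign after quantile normalization (0.076).

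Between CCD and cTAL, sample weights raised the genes called from 2526 to 4401 and the members called from 1 to 3. Members called were 2 with a pseudocount of 5, after quantile normalization and without the 2 tubules with the fewest genes, and 1 to 2 on leaving out each tubule; Wnk1 was the added call. Quantile normalization turned the sign of Oxsr1 (-0.13), Cul3 (-0.045) and Klhl3 (-0.97), moved the median over all genes from 0.31 to -0.03 and changed the split of calls from 1782 higher and 744 lower to 1221 and 1244. Klhl3 also turned with a pseudocount of 0.1 (-0.30), with means per header prefix (-0.10) and on leaving out 1 tubule (-0.078 to 0.12), and Cul3 ran from -0.016 to 0.36 on leaving out 1 tubule. Wnk4 was called lower in CCD in every setting run. In single cells, the type with the highest mean was also highest for 2 of 8 members by median and for 3 of 8 by the share of cells above 0.1 TPM. The causes were not tested. Where leaving out 1 of 2 samples left a lone one, it was assumed to vary like the other group. TPM tables keep no depth, so absence in a cell is limited by unknown sampling.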
